A study of Mus musculus with 6 samples.

Results

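The mouse genes for vomeronasal receptors were examined in chromatin immunoprecipitation sequencing (ChIP-seq) libraries of 2 kidney cell lines. Members were all genes whose symbol in the deposited tables begins with Vmn1r, Vmn2r, V1r or V2r, and 337 of the 21937 measured genes qualified, 213 of type 1 (V1R) and 124 of type 2 (V2R). They lay on 12 chromosomes, 9 carried a symbol ending in -ps plus a number (pseudogenes), and 4 still carried an old V1r symbol. ChIP-seq sequences the DNA that comes down with modified histones when an antibody is used to fish for them, and an input library holds chromatin that skipped this step. The mK3 and mK4 lines are immortalized lines from the metanephros, the embryonic kidney rudiment, taken in mid-gestation (E11.5) from mice labelled as strain CD1. Each line gave 1 library with an antibody labelled H3K4 (catalogue number ab8898), 1 with an antibody labelled H3K27 (catalogue number 39535) and 1 input, so each of the 6 groups held 1 library. The series, per its title, is about histone methylation and the fate of the progenitor cells that form the nephrons of the kidney.

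Vomeronasal receptors are G protein-coupled receptors of sensory neurons in the vomeronasal organ, the chemosensory organ at the base of the nasal septum through which mice detect pheromones and other social cues. V1R neurons signal through the G protein subunit Gnai2, and their receptors, mostly encoded by a single coding exon, bind small molecules such as sulfated steroids. V2R neurons signal through Gnao1, and their receptors carry a long extracellular domain and bind peptides and proteins such as the exocrine gland peptides and major urinary proteins. Both families arose by repeated local duplication and sit in tandem clusters of similar copies, and outside the vomeronasal organ they are largely silent. Methylation of H3K4 is in general found at active promoters, and trimethylation of H3K27 is laid down by Polycomb complexes over silent genes, often at promoters rich in the dinucleotide CpG. The labels give neither the methylated form nor the specificity of either antibody.

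The libraries had no replicates, so no difference was tested, and each interval given in square brackets is a 95% interval that covers counting error only. The number ab8898 is listed by its vendor for an antibody against trimethylated H3K9, a mark of heterochromatin, which goes against the label, and the libraries are called by their labels throughout. In the libraries labelled H3K4, 84 genes of cytosolic ribosomal proteins, which are active in all cells, held 1.46-fold [1.30, 1.63] the input share in mK3 and 1.42-fold [1.29, 1.57] in mK4. The 359 genes with a Zfp symbol, whose zinc finger members are common targets of H3K9 trimethylation, held 0.980-fold [0.95, 1.01] and 1.0-fold [0.976, 1.03] there. Library totals over exons lay between 311409 reads (mK3 input) and 714011 reads (mK4 H3K4), which left a median of 2 to 6 reads per receptor gene. Between 22 and 106 of the 337 members reached 10 reads in a library, so single genes were measured coarsely and the pooled values carry most of the information. Defining genes of vomeronasal neurons (Trpc2, Gnai2, Gnao1 and Omp) were not marked by either antibody in either line, and the series measured no RNA.

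Sequences upstream of the receptors show what kind of promoters these are and how alike the copies can be. They are the 250 bases just before the annotated start in RefSeq's GRCm38.p6 annotation, which is a later build than the mm9 used for the reads, and a sequence was matched for 298 of the 337 members. Reads were tallied against exon length, so this upstream sequence lies outside the counted exons. Vmn1r107 and Vmn1r155 on chromosome 7 represent the V1R copies with identical upstream sequence. Their 250 bases were identical in every letter, at chr7:20668668-20668917 for Vmn1r107 and chr7:22657768-22658017 for Vmn1r155, both on the + strand, with 2 CG dinucleotides (in capitals) in all.
Vmn1r107: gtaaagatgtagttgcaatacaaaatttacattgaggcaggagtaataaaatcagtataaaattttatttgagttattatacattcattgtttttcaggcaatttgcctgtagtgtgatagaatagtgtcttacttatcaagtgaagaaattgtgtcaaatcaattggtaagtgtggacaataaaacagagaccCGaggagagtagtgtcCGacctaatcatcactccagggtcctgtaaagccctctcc

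The next 2 sequences belong to V2R neighbours on chromosome 17, Vmn2r115 at chr17:23343727-23343976 (+ strand) and Vmn2r114 at chr17:23312314-23312563 (- strand). They differed at 2 of the 250 bases, in capitals. They are shown because the reads of Vmn2r115 are among those that differed most between the lines.
Vmn2r115: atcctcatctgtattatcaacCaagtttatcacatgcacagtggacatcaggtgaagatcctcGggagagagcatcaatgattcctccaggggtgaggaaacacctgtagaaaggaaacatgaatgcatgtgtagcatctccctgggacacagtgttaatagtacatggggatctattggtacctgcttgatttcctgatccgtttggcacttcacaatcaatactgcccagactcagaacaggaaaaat
Vmn2r114: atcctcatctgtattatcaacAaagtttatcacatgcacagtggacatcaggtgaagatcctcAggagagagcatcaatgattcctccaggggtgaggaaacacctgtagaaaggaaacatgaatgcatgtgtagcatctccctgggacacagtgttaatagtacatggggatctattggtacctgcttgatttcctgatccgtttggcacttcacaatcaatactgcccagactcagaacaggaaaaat
The last 2 belong to Vmn2r121 at chrX:124135911-124136160 (- strand) and Vmn2r89 at chr14:51451712-51451961 (+ strand), each the closest relative of the other by this measure although they lie on different chromosomes. Capitals mark the 16 bases of each that did not match in the alignment, and over the whole 300-base window (250 before and 50 after the start) they differed by 22 edits. They are shown because these genes had the largest H3K4 differences between the lines.
Vmn2r121: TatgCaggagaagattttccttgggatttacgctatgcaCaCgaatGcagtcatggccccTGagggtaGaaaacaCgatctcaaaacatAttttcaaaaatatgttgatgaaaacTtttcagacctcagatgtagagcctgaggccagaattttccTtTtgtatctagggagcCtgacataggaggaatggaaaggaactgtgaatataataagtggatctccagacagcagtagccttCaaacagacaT
Vmn2r89: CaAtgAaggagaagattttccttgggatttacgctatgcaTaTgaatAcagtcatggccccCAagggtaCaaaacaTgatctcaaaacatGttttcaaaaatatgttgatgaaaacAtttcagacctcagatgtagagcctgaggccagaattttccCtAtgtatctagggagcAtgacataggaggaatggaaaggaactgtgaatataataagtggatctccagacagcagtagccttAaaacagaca

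As in these examples, the receptor promoters were poor in CpG. In the 300-base window the median member held 1 CpG and 36.7% G or C, against 14 CpG and 57% over the 16499 genes with a sequence. A single member, Vmn2r29 with 23 CpG, held 10 or more (0.336% of members against 60.1% of all genes). The annotated start coincided with an ATG in 258 of the 298 members (86.6%) and in 7.97% of all genes, so for most receptors the annotation begins at the coding sequence and the window may not be the true promoter. Olfactory receptor genes, the large receptor family of the main nose, had the same median of 1 CpG over 937 sequences.

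Over all members, reads were scarcer than input with the H3K4 antibody and more frequent than input with the H3K27 antibody, in both lines. The 337 genes together held 1492 reads in mK3 H3K4, 1865 in mK4 H3K4, 2582 in mK3 H3K27, 1775 in mK4 H3K27, 934 in mK3 input and 1173 in mK4 input. As a share of each library's reads over its own input, H3K4 stood at 0.836-fold [0.769, 0.908] in mK3 and 0.861-fold [0.800, 0.927] in mK4. H3K27 stood at 1.45-fold [1.35, 1.57] in mK3 and 1.22-fold [1.13, 1.31] in mK4. Set directly against H3K4, the H3K27 share was 1.74-fold [1.63, 1.85] in mK3 and 1.41-fold [1.32, 1.51] in mK4. None of these 6 intervals included 1.

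V1R and V2R genes had the same pattern. The V1R genes held 636 and 823 reads in the H3K4 libraries, 1115 and 833 in the H3K27 libraries and 397 and 501 in the inputs, mK3 before mK4. Their H3K27 share was 1.48-fold [1.31, 1.66] input in mK3 and 1.34-fold [1.19, 1.5] in mK4, and their H3K4 share 0.838-fold [0.738, 0.952] and 0.890-fold [0.795, 0.996]. The V2R genes held 856 and 1042, 1467 and 942, and 537 and 672 reads in the same order. Their H3K27 share was 1.43-fold [1.30, 1.59] and 1.13-fold [1.02, 1.24], and their H3K4 share 0.834-fold [0.748, 0.931] and 0.840-fold [0.761, 0.927]. In mK4 the H3K27 value of V1R genes was 1.19-fold [1.02, 1.38] that of V2R genes. In mK3 it was 1.03-fold [0.884, 1.20], an interval that includes 1. The 9 pseudogene symbols had an H3K27 share of 0.985-fold [0.587, 1.69] in mK3 and 0.863-fold [0.493, 1.51] in mK4, intervals wide enough to include the values of the intact families.

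**Figure D1:**
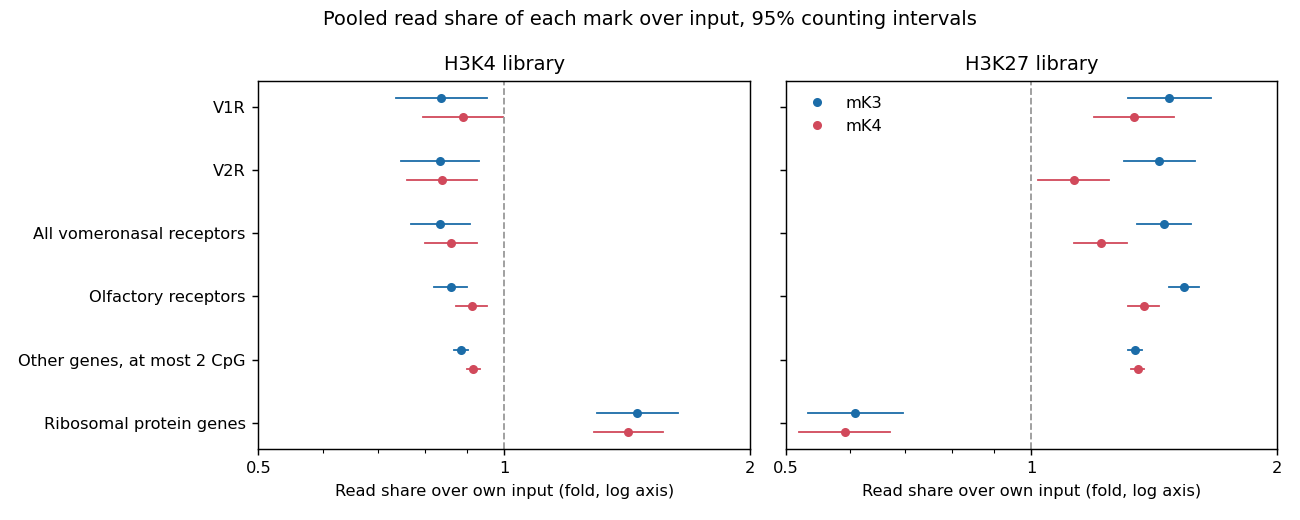
Read share of the H3K4 library (left) and the H3K27 library (right) over the line's own input, on a log axis, for receptor types and comparison sets, with points for mK3 (blue) and mK4 (red) and bars for 95% counting intervals. V1R and V2R genes lie below 1 for H3K4 and above 1 for H3K27, close to olfactory receptors and to other genes with at most 2 CpG, and ribosomal protein genes lie on the opposite side in both panels.

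Similar values were found for other gene sets with few CpG. The 1126 olfactory receptors held 0.860-fold [0.821, 0.900] and 0.912-fold [0.873, 0.953] the input share with H3K4 and 1.54-fold [1.47, 1.60] and 1.37-fold [1.31, 1.43] with H3K27, mK3 before mK4. Relative to them, vomeronasal receptors stood at 0.945-fold [0.867, 1.03] for H3K27 in mK3 and at 0.886-fold [0.813, 0.965] in mK4. The 1791 other genes with at most 2 CpG in the window held 0.885-fold [0.867, 0.903] and 0.917-fold [0.900, 0.934] with H3K4 and 1.34-fold [1.31, 1.36] and 1.35-fold [1.32, 1.37] with H3K27. They were picked by CpG alone. Their median window held 45.3% G or C against 36.7% in the receptors, and the start was an ATG in 8.60% against 86.6%. Relative to those genes, the receptors' H3K27 value was 1.08-fold [1.0, 1.17] in mK3 and 0.902-fold [0.836, 0.973] in mK4, on opposite sides of 1. An H3K27 share above input together with an H3K4 share below it was thus also measured in CpG-poor genes of other families.

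The ratio to input hides a low read density. Per exon kilobase the members held 2.49 and 3.11 reads in the H3K4 libraries, 4.30 and 2.96 in the H3K27 libraries and 1.56 and 1.96 in the inputs (mK3, mK4), against 9.60 and 11.52, 9.57 and 7.76, and 5.02 and 6.24 over all genes. Receptor exons were thus below the average gene in all 6 libraries, inputs included. With exon length in place of input as the background, the H3K27 value of the members was 0.450-fold in mK3 and 0.381-fold in mK4 the value of all genes. The H3K27 direction given above therefore depends on the background, being above 1 relative to input and below 1 relative to exon length. H3K4 stayed below 1 with exon length as the background, at 0.259-fold in mK3 and 0.270-fold in mK4. The comparison of H3K27 directly with H3K4 uses neither background.

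Density was lowest at near-identical copies. Of the 298 members with an upstream sequence, 95 had at least 95% identity (at most 15 edits in 300 bases) to another member, 37 of them with no difference at all, and 203 were distinct. V1R genes with such a copy held 0.195 and 0.439, 0.380 and 0.292, and 0.195 and 0.205 reads per exon kilobase in the H3K4, H3K27 and input libraries (mK3, mK4). Distinct V1R genes held 3.88 and 5.01, 6.81 and 4.93, and 2.31 and 2.98, above the near-identical ones in every library. V2R genes with a copy held 1.5 and 1.63, 2.56 and 1.45, and 0.955 and 1.04, and distinct V2R genes 3.34 and 4.11, 5.83 and 3.81, and 2.08 and 2.67. Distinct receptors of both types reached about the density of olfactory receptors (4.24 and 4.84, 7.56 and 4.91, and 2.58 and 2.87) but stayed below that of all genes.

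**Figure D2:**
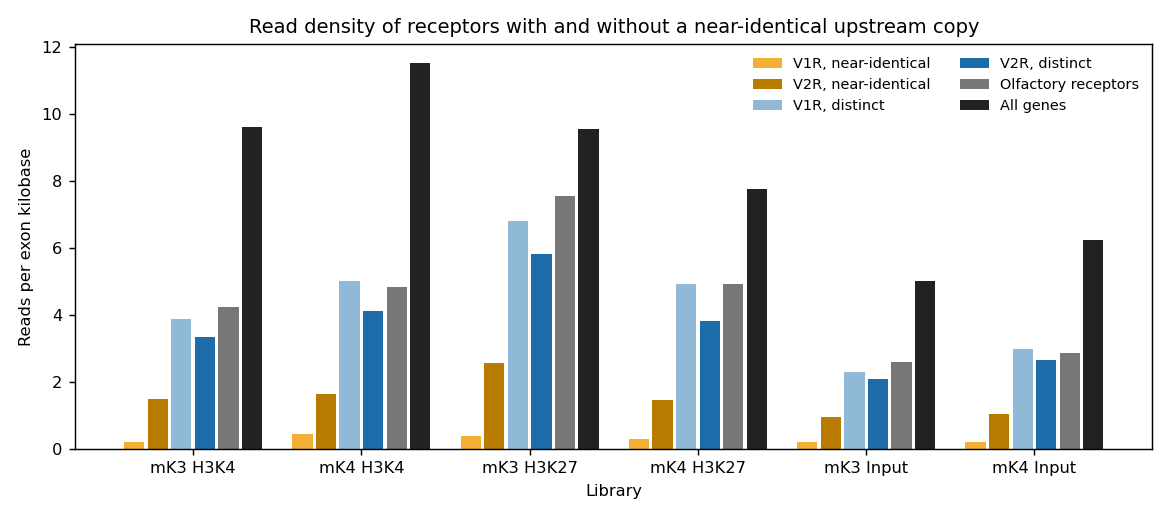
Reads per exon kilobase (vertical axis) in each of the 6 libraries (horizontal axis) for V1R and V2R genes with and without a near-identical upstream copy, olfactory receptors and all genes; each bar is 1 pooled value without an error bar. The V1R genes with a copy lie below 0.5 in all 6 libraries, while distinct receptors lie near the olfactory receptors and all genes lie highest.

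In all, 44 members (13.1%) had 0 reads in every library, against 388 of all 21937 genes (1.77%), and a count of 0 allows up to 3 reads per library. Of the 44, 41 lay on chromosome 7, 35 were V1R and 9 V2R. Of the 36 with an upstream sequence, 35 had a near-identical copy and 27 an identical one. The exception was Vmn2r48, whose nearest relative was Vmn2r40 at 21 edits. Vmn1r107 and Vmn1r155, whose shared sequence is printed above, were both at 0 in all 6 libraries. How the authors treated reads that match several places is not given in the sources used here, and its part in these zeros was not tested.

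The exon lengths deposited for some of these genes were also unusual. Among 173 V1R genes annotated as a single exon span, 23 had a deposited exon length that was a whole multiple (2 to 6, within 0.05) of the reference length, all on chromosome 7 and all at 0 reads. For Vmn1r107 and Vmn1r155 the deposited length was 5550 bases against 924 in the reference, a multiple of 6. Lengths of this kind inflate the exon kilobases by which densities are divided, but not the ratios to input. On the ratio to input, distinct members differed little from near-identical ones, with H3K27 1.13-fold [0.886, 1.44] in mK3 and 1.08-fold [0.839, 1.40] in mK4, both intervals including 1. Taken alone, the distinct members held 1.5-fold and 1.22-fold the input share with H3K27 and 0.857-fold and 0.866-fold with H3K4, so the pattern was as large without the copies.

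A gene was called marked where its read count, scaled to the mean library total with 5 added, was at least 2-fold that of its own input. By this rule H3K27 marked 37 members in mK3, where 10.3% of all genes were marked, and 19 members in mK4, where 9.06% were. The members' shares were near or below the background, and with few reads per gene the added 5 keeps many from passing. V1R genes made up 18 of the 37 and 14 of the 19. H3K4 marked 9 members in mK3 (4.94% of all genes) and 5 in mK4 (3.69%), and none in both lines (0.811%). The median log2 ratio of H3K27 over input was 0.19 over the members and 0.00 over all genes in mK3, and 0.00 for both in mK4. Counting intervals lay wholly above input for H3K27 at 24 members in mK3 (11.3% of all genes) and 14 in mK4 (12.1%), and wholly below at 3 (11%) and 5 (11.4%). For H3K4 they lay above at 6 (6.21%) and 4 (6.61%) and below at 18 (7.07%) and 12 (7%).

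Only 6 members carried the H3K27 call in both lines (2.85% of all genes): Vmn1r65, Vmn1r199, Vmn1r236, Vmn2r8, Vmn2r26 and Vmn2r103, named because they are so few. Vmn2r8, on chromosome 5, held 26 and 22 H3K27 reads against 4 and 2 input reads in mK3 and mK4, which is 3.41-fold [1.18, 13.5] and 8.84-fold [2.17, 77.5]. Vmn1r65, on chromosome 7, held 18 and 15 H3K27 reads against 2 and 4, 4.73-fold [1.13, 42.0] and 3.01-fold [0.960, 12.5]. Vmn2r26, a receptor known to respond to peptides that bind MHC class I molecules, held 15 and 13 H3K27 reads against 1 and 2, and 8 and 20 H3K4 reads. These genes were high with H3K27 in both lines, but their inputs held between 0 and 4 reads, so the folds are loosely bounded.

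Other members were marked by H3K27 in mK3 alone. Vmn2r116, the receptor for the male pheromone peptide ESP1, held 34 H3K27 reads in mK3 against 1 input read, 17.9-fold [2.99, 726], and 14 against 6 in mK4, 1.87-fold [0.677, 5.95]. Its H3K4 reads were 17 in mK3 and 15 in mK4. Its window differed from that of Vmn2r112 by 6 edits in 300 bases, so it counts among the near-identical copies described above, and how reads were divided between the 2 genes is not known. Vmn2r3, of the V2R group that many V2R neurons express beside a second receptor, held 30 H3K27 reads against 2 in mK3 and 9 against 4 in mK4, or 7.88-fold [2.00, 68.0] and 1.81-fold [0.505, 8.03]. Vmn2r10 held 21 against 2 in mK3 and 15 against 6 in mK4, or 5.51-fold [1.35, 48.5] and 2.01-fold [0.737, 6.32]. Vmn2r81 was high with both antibodies in mK3, with 24 H3K4 and 32 H3K27 reads against 3 in the input, and not in mK4, with 14 and 14 against 12. Carrying both calls at once was seen for 8 members in mK3 (1.39% of all genes) and 3 in mK4 (0.78%).

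The chromosomal clusters were compared next. Placing the members in the gene order of GRCm38.p6, and starting a new cluster where more than 10 other measured genes (olfactory receptors apart) lay between neighbours, gave 21 clusters and 8 lone genes. H3K27 was above input in 19 of 21 clusters in mK3 and 18 in mK4. Its interval lay wholly above 1 in 8 and 4 of them and wholly below 1 in none. H3K4 was above input in 8 clusters in mK3 and 4 in mK4, with the interval wholly above 1 in 1 and 0 and wholly below in 4 and 3.

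Among clusters of 4 or more genes, the highest H3K27 values lay in the chromosome 10 clusters in mK3. The 2-gene cluster Vmn1r184 to Vmn1r185 on chromosome 7 stood at 4.20-fold [0.563, 186] there, on 8 H3K27 reads and 1 input read. Vmn2r80 to Vmn2r83, 4 V2R genes, held 83 and 63 H3K4 reads, 157 and 78 H3K27 reads and 31 and 48 input reads (mK3, mK4). H3K27 was 2.66-fold [1.80, 4.05] input in mK3 and 1.31-fold [0.900, 1.91] in mK4. Its 20 flanking genes were also above input, at 1.65-fold [1.38, 1.98] and 1.62-fold [1.35, 1.94]. Over these genes the cluster's H3K27 value was 1.61-fold [1.05, 2.46] in mK3 and 0.806-fold [0.540, 1.20] in mK4. Each of the 4 receptor genes held more H3K27 reads in mK3 than in mK4, from 30 against 19 in Vmn2r80 to 54 against 26 in Vmn2r83. These are unscaled counts, and the mK3 H3K27 library was also the larger one, with 593079 reads against 481235. Vmn2r84 to Vmn2r87, the next 4 genes, held 35 and 22, 54 and 29, and 6 and 16 reads in the same order. There H3K27 was 4.73-fold [2.04, 13.4] input in mK3 and 1.46-fold [0.765, 2.87] in mK4, and H3K4 3.05-fold [1.27, 8.88] and 0.745-fold [0.374, 1.52]. The mK3 input of that cluster was low beside its 10 flanking genes: the input share in mK4 over mK3 was 2.15-fold [0.798, 6.70] in the cluster and 0.537-fold [0.346, 0.824] in the flanking genes, so the folds over input there rest on 6 reads.

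On chromosome 6, the 28 V1R genes from Vmn1r4 to Vmn1r31 held 1.86-fold [1.42, 2.47] the input share with H3K27 in mK3 and 1.20-fold [0.895, 1.62] in mK4. The order was the other way in another cluster of this chromosome, the 16 genes from Vmn1r40 to Vmn1r54, with 1.25-fold [0.937, 1.69] in mK3 and 1.54-fold [1.16, 2.07] in mK4. In the latter cluster H3K4 was below input in both lines, at 0.669-fold [0.482, 0.933] and 0.722-fold [0.530, 0.988]. The 36 V1R genes of chromosome 13, Vmn1r188 to Vmn1r223, were above input with H3K27 in both lines, at 1.37-fold [1.02, 1.85] and 1.49-fold [1.09, 2.06]. The 10 V2R genes of chromosome 5, Vmn2r8 to Vmn2r17, likewise stood at 1.41-fold [1.05, 1.93] and 1.70-fold [1.26, 2.32]. These last 2 clusters were the ones whose H3K27 intervals lay above 1 in both lines.

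Chromosome 17 carried the mixed cluster Vmn2r90 to Vmn1r237, with 14 V1R and 21 V2R genes and 312 and 294, 491 and 283, and 230 and 208 reads (H3K4, H3K27, input; mK3, mK4). It was the best-covered cluster. Vmn2r90, a member with among the most reads of all, held 23 and 12, 37 and 28, and 17 and 21 in the same order. Over the whole cluster H3K27 was close to input, at 1.12-fold [0.956, 1.32] and 1.09-fold [0.911, 1.31], while H3K4 was below it, at 0.710-fold [0.597, 0.845] and 0.766-fold [0.639, 0.919]. Vmn2r111 to Vmn2r117, 8 genes further along, differed from it in mK3, with H3K27 at 2.03-fold [1.39, 3.03] there and 1.17-fold [0.800, 1.73] in mK4.

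Chromosome 7 held the largest clusters and the fewest reads per gene. Of the 66 V1R genes from Vmn1r91 to Vmn1r183, 51 had a near-identical copy and 34 had no read in any library. The whole cluster held 17 input reads in mK3 and 37 in mK4. Its H3K27 value of 1.36-fold [0.761, 2.54] in mK3 and 1.28-fold [0.835, 1.99] in mK4 was not distinguishable from input at this depth. The mixed cluster from Vmn2r29 to Vmn2r56, with 18 V1R and 28 V2R genes, stood at 1.53-fold [1.10, 2.17] in mK3 and 1.04-fold [0.798, 1.36] in mK4. The small cluster Vmn1r85 to Vmn1r89, which holds receptors known to bind sulfated oestrogens, stood at 1.31-fold [0.689, 2.64] and 1.86-fold [1.01, 3.58].

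**Figure D3:**
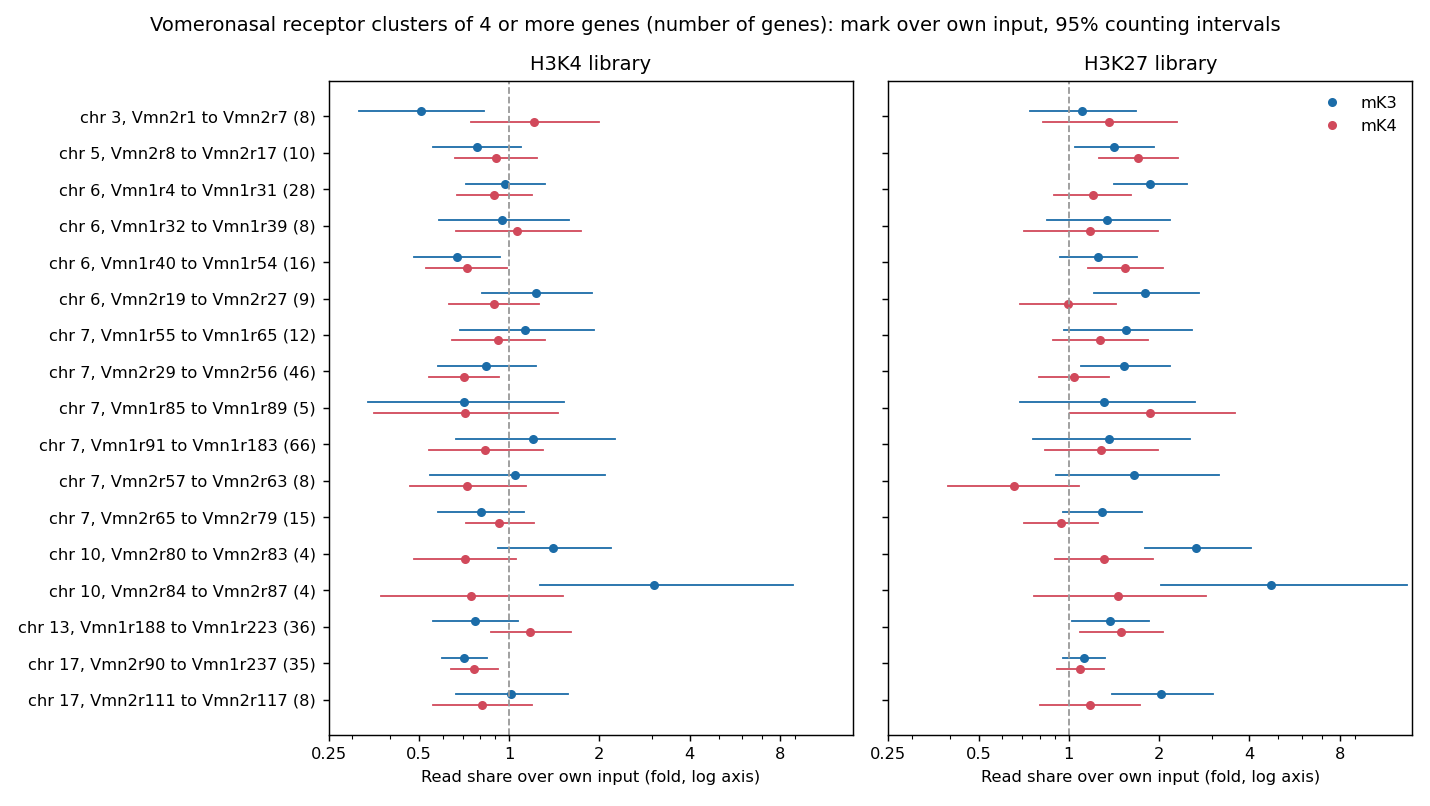
Read share over the line's own input (log axis) for the 17 receptor clusters of 4 or more genes, with the H3K4 library on the left, the H3K27 library on the right, mK3 in blue, mK4 in red and bars for 95% counting intervals. Most H3K27 points lie above 1, the chromosome 10 clusters in mK3 lie farthest to the right, and the well-covered chromosome 17 cluster lies near 1 for H3K27 and below 1 for H3K4.

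Between the lines, the receptors' H3K27 share was lower in mK4 and their H3K4 and input shares differed little. Over all members the mK4 share over the mK3 share was 0.847-fold [0.797, 0.900] for H3K27, 1.04-fold [0.973, 1.12] for H3K4 and 1.01-fold [0.927, 1.10] for input. Relative to input, H3K27 was 0.838-fold [0.754, 0.930] and H3K4 1.03-fold [0.923, 1.15]. The lower H3K27 value was 0.785-fold [0.683, 0.903] in V2R genes and 0.906-fold [0.773, 1.06] in V1R genes, and the latter interval includes 1. Without division by input, the members' H3K27 share in mK4 over mK3 was not set apart from that of olfactory receptors, at 1.06-fold [0.987, 1.13] their value. On the same measure the members stood at 1.13-fold [1.02, 1.25] for input and 1.10-fold [1.01, 1.19] for H3K4. Relative to other genes with at most 2 CpG, the members' H3K27 share was 0.851-fold [0.800, 0.906] and their input share 1.02-fold [0.937, 1.12]. The median over genes with enough reads in these H3K27 libraries was 0.924-fold. With 1 library for each line and antibody, a difference between lines and a difference between preparations cannot be told apart.

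The input shares themselves differed between the lines by chromosome, and on chromosomes 7 and 17 the receptors' input share was close to that of the other genes there. On chromosome 7, which holds many receptor clusters, the members' share in mK4 over mK3 was 1.54-fold [1.28, 1.84] in input, 1.36-fold [1.19, 1.57] in H3K4 and 1.16-fold [1.03, 1.32] in H3K27. The other genes of chromosome 7 stood at 1.55-fold, 1.55-fold and 1.45-fold in the same 3 kinds of library. On chromosome 17 the members stood at 0.800-fold, 0.810-fold and 0.683-fold and the other genes at 0.808-fold, 0.845-fold and 0.838-fold. On both chromosomes the H3K27 share of the receptors was below that of the other genes. Input was not close on every chromosome: on chromosome 3 the members stood at 0.551-fold [0.321, 0.931] against 1.84-fold [1.81, 1.88] in the other genes, on chromosome 10 at 1.39-fold [0.915, 2.15] against 0.803-fold [0.786, 0.821], and on chromosome 13 at 0.769-fold [0.536, 1.10] against 1.14-fold [1.11, 1.17]. Copy number was not measured, and its part in these input differences was not tested.

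Against up to 10 measured genes on each side, 3 clusters of chromosome 7 had lower H3K27 shares in mK4 relative to mK3. The value of the cluster over that of its flanking genes was 0.736-fold [0.557, 0.972] for the mixed cluster Vmn2r29 to Vmn2r56, and, for the V2R clusters, 0.606-fold [0.369, 0.995] for Vmn2r57 to Vmn2r63 and 0.671-fold [0.508, 0.885] for Vmn2r65 to Vmn2r79. The same measure was 0.691-fold [0.511, 0.935] for Vmn2r80 to Vmn2r83 on chromosome 10 and 0.817-fold [0.676, 0.987] for the mixed chromosome 17 cluster. It was above 1 for the V1R cluster Vmn1r40 to Vmn1r54 on chromosome 6, at 1.33-fold [1.03, 1.72]. For the large V1R cluster of chromosome 7, Vmn1r91 to Vmn1r183, it was 1.0-fold [0.660, 1.52].

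**Figure D4:**
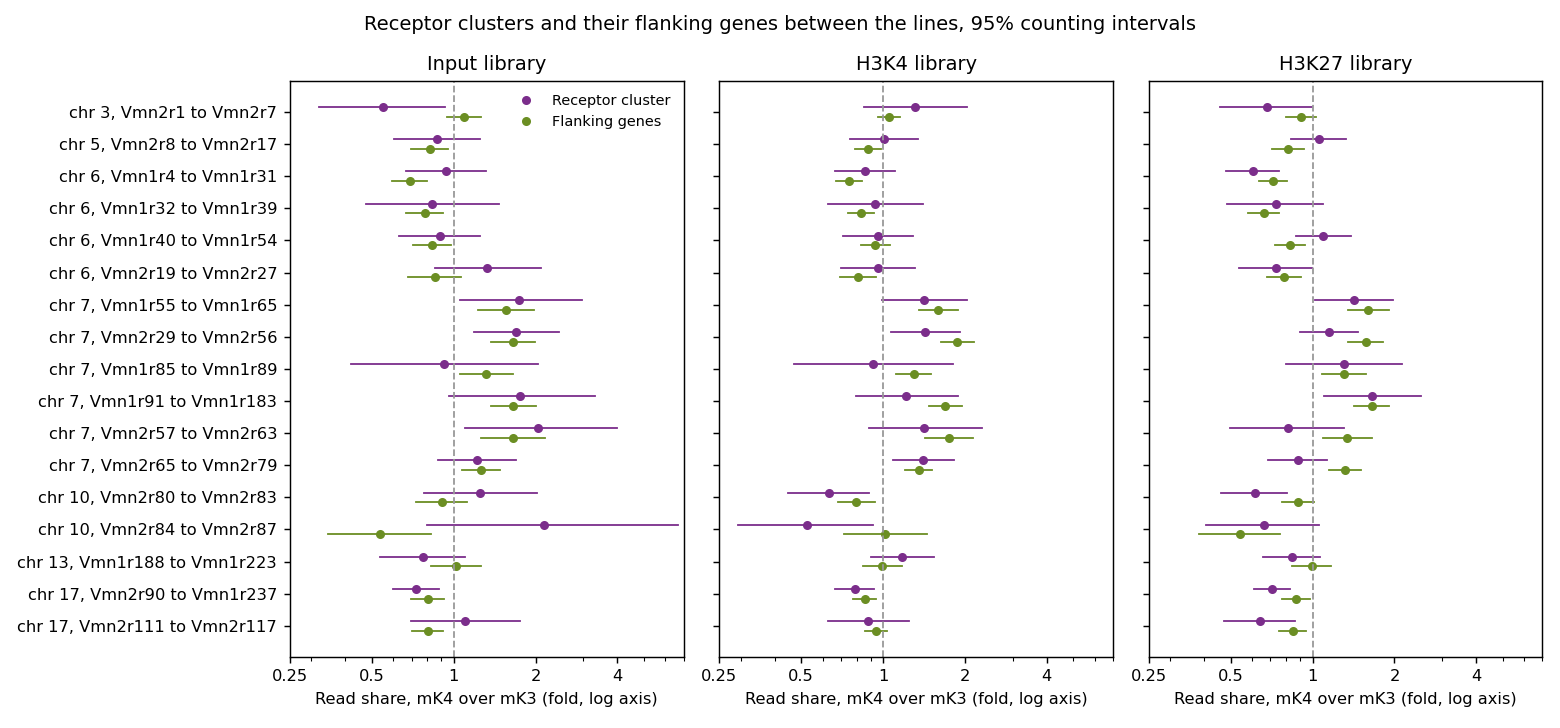
Read share in mK4 over mK3 (log axis) for each receptor cluster of 4 or more genes (purple) and the genes flanking it (green), in the input, H3K4 and H3K27 libraries, with bars for 95% counting intervals. Clusters and flanking genes of chromosome 7 lie mostly above 1 in input and H3K4, while in H3K27 the 3 clusters Vmn2r29 to Vmn2r56, Vmn2r57 to Vmn2r63 and Vmn2r65 to Vmn2r79 lie to the left of their flanking genes.

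Few single members passed the rule for a difference between the lines, which asks for a mark in at least 1 line and a 2-fold ratio of scaled counts with 5 added. H3K27 was lower in mK4 at 6 members (0.934% of all genes) and higher at 1 (0.889%), and H3K4 was lower at 3 (0.392%) and higher at 3 (0.424%). Vmn2r118 on chromosome 17 held 35 and 9 H3K27 reads (mK3, mK4), 0.317-fold [0.134, 0.673], while its H3K4 reads were 19 and 16 and its input reads 7 and 16. Vmn1r236 held 28 and 8 H3K27 reads, 0.352-fold [0.139, 0.793], with 1 input read in each line. Vmn2r95 held 19 and 4, 0.259-fold [0.0642, 0.781], with input reads of 1 and 6. In these 3 genes, all on chromosome 17, H3K27 was lower in mK4 without a like difference in H3K4. The same held off that chromosome for Vmn2r3, on chromosome 3, which also passed the rule. It held 30 and 9 H3K27 reads, 0.370-fold [0.154, 0.799], and 6 and 13 H3K4 reads. Vmn1r228 had the lowest ratio among members with at least 20 H3K27 reads over the 2 lines, with 20 and 3 H3K27 reads, 0.185-fold [0.0352, 0.623], but its input reads were 11 and 3 and it was not marked. Vmn2r115, whose upstream sequence is printed above, held 30 and 8 H3K27 reads, 0.329-fold [0.130, 0.734], but was not marked in either line. Its near-copy Vmn2r114 held 13 and 11, and reads could have been split between the pair, so both counts are uncertain. In the other direction, Vmn2r17 held 10 and 19 H3K27 reads, 2.34-fold [1.04, 5.64], with 16 input reads in each line, and Vmn1r71 held 8 and 15, 2.31-fold [0.920, 6.29]. Vmn2r14 and Vmn2r105 each held 10 and 16, 1.97-fold [0.841, 4.86], with intervals that include 1.

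The largest H3K4 differences were at Vmn2r121 and Vmn2r89, the related pair shown above. Vmn2r121, on the X chromosome, held 3 H3K4 reads in mK3 and 53 in mK4, 28 and 36 H3K27 reads and 9 and 24 input reads. Its H3K4 share was 14.7-fold [4.77, 73.7] higher in mK4, and its input share 2.15-fold [0.964, 5.25]. Vmn2r89, on chromosome 14, held 5 and 32 H3K4 reads, 33 and 25 H3K27 reads and 14 and 11 input reads, so that its H3K4 share was 5.34-fold [2.06, 17.5] higher in mK4. In both genes the mK3 H3K4 library was the low one, at 0.174-fold [0.0304, 0.699] and 0.187-fold [0.0527, 0.549] its input, and mK4 H3K4 was near input, at 1.20-fold [0.725, 2.03] and 1.58-fold [0.774, 3.46]. Neither gene was therefore marked by H3K4, and neither entered the counts above. Vmn2r88, beside Vmn2r89, held 13 and 29 H3K4 reads. For H3K4 in mK4 over mK3, the chromosome 14 pair together stood at 2.97-fold [1.68, 5.24] the value of its flanking genes. The pair includes Vmn2r89 itself, and its input share was also higher on this measure, at 1.93-fold [1.06, 3.52]. Next in order came Vmn2r104 with 5 and 16 H3K4 reads, 2.67-fold [0.934, 9.31], and Vmn2r26 with 8 and 20, 2.08-fold [0.879, 5.47], both with intervals that include 1.

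Lower H3K4 shares in mK4 were found at Vmn1r15 on chromosome 6, with 16 and 5 reads, 0.261-fold [0.0746, 0.744], and 1 input read in each line. Its H3K27 reads were also lower in mK4, 13 and 3, or 0.284-fold [0.0520, 1.03]. Vmn1r62 on chromosome 7 held 15 and 5 H3K4 reads, 0.278-fold [0.0790, 0.804], while its H3K27 reads (3 and 6) and input reads (1 and 11) went the other way. Vmn2r18 held 16 and 7 H3K4 reads, 45 and 16 H3K27 reads and 12 and 5 input reads, lower in mK4 in all 3 kinds of library. Vmn2r19, also with 16 and 7 H3K4 reads, held 23 and 10 H3K27 reads but 7 and 12 input reads. The 3 members with an H3K4 call higher in mK4 were Vmn1r206 (2 and 12 reads), Vmn1r22 (1 and 10) and Vmn1r187 (0 and 7). Their mK4 inputs held 0 reads. These calls rest on 7 to 12 H3K4 reads in mK4.

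Genes that act with the receptors were compared by lists. The counts of marked genes below stand beside shares over all genes of 10.3% in mK3 and 9.06% in mK4 for H3K27, and of 4.94% and 3.69% for H3K4. Of 22 genes for vomeronasal signal transduction and neuron identity, H3K27 marked 6 in mK3 and 3 in mK4 and H3K4 marked 0 and 1, with a pooled H3K27 share of 1.19-fold [1.05, 1.35] and 1.16-fold [1.01, 1.32] input. The members marked by H3K27 were 27.3% of the list in mK3 and 13.6% in mK4. Neurog1, a transcription factor that commits olfactory progenitors to neurons, was marked by H3K27 in both lines. It held 35 and 24 H3K27 reads against 4 and 1 input reads. Lhx2, a transcription factor of olfactory neurons, held 27 and 49 H3K4 reads against 8 and 6 input reads and was marked by H3K4 in mK4. Omp, a protein of mature olfactory and vomeronasal neurons, held 22 and 3 H3K27 reads against 11 and 17. Of 12 genes of canonical olfactory transduction, H3K27 marked 1 in mK3 and 2 in mK4, with a pooled share of 1.30-fold [1.10, 1.53] and 1.24-fold [1.04, 1.48].

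The 9 H2-M class Ib genes, MHC-like genes that V2R neurons express, had an H3K27 share of 2.78-fold [1.87, 4.26] input in mK3 and 1.67-fold [1.12, 2.55] in mK4. Of these 9 genes, 5 carried the H3K27 call in mK3 (55.6%, against 10.3% of all genes) and 1 in mK4 (11.1%, near the 9.06% of all genes). H2-M10.3 held 20 and 16 H3K27 reads against 3 and 1 input reads, H2-M10.6 24 and 9 against 2 and 5, and H2-M11 22 and 5 against 2 and 4. By contrast, H2-M10.2 was not marked in either line, with 10 and 6 H3K27 reads against 7 and 4. The 6 formyl peptide receptors, a further receptor family of the vomeronasal organ, held 1.85-fold [1.10, 3.26] and 1.07-fold [0.633, 1.83], with 1 marked in mK3 and 0 in mK4. In both lists the mK3 value was the higher one, with overlapping intervals. The 15 trace amine receptors of the main nose held 2.03-fold [1.46, 2.88] and 2.02-fold [1.47, 2.83], with 3 marked in each line, and the 35 bitter taste receptors 1.57-fold [1.27, 1.95] and 1.27-fold [1.01, 1.60], with 7 and 4 marked. Of the ligand genes, 19 for major urinary proteins held 1.27-fold [0.730, 2.30] and 2.75-fold [1.42, 5.74] with 1 and 2 marked, and 6 for exocrine gland peptides 1.80-fold [1.09, 3.08] and 1.14-fold [0.729, 1.80] with none marked. Among 10 genes of kidney mesenchyme and epithelium, H3K27 marked 1 in each line and the pooled share was 1.47-fold [1.22, 1.78] in mK3 and 0.798-fold [0.701, 0.909] in mK4, but their input share was itself 2.51-fold [2.08, 3.03] in mK4 over mK3. Cdh6, a cadherin of kidney epithelium named here after its values were seen, held 259 of the list's mK4 input reads against 9 in mK3, and 222 of its mK4 H3K27 reads against 31. Without Cdh6 the input share was 1.20-fold [0.963, 1.49] in mK4 over mK3, and H3K27 stood at 1.45-fold [1.19, 1.76] input in mK3 and 0.933-fold [0.773, 1.13] in mK4, where the interval includes 1.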

How the data were processed

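ChIP-seq and input libraries of the mK3 and mK4 lines were analysed, 1 per group, with groups taken from the sample titles. Per the file headers, each table deposited by the authors has 22088 gene rows, placed by chromosome and symbol, with the exon length, the reads counted and RPKM. The deposited counts are whole numbers and were used as deposited. The authors' RPKM equals the count per exon kilobase, scaled to the file total (largest difference 4.2e-07) and served only for that check. The exon length in bases is a further column given by the authors. Reads were placed on mm9, per the submitters' processing notes, and for the aligner, reads with several matches and duplicates the handling is not given in the sources used here. One row was kept per symbol, that with the longest exon length (9 member rows were dropped), leaving 21937 genes.

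Read shares are member reads over the file total (311409 to 714011). Ratios of 2 shares carry exact Clopper-Pearson 95% intervals, and ratios of 2 ratios carry intervals from the summed reciprocals of the counts. Calls used log2 of counts scaled to the mean total of 513622 plus a pseudocount of 5 and a 2-fold threshold, a scale that understates differences at few reads. Both were checked on simulated counts that held counting error only. For the calls, the planted differences sat at genes with more input reads than most members held. The check therefore does not show how often a difference is called at the depth of most members. Gene order came from a RefSeq table of assembly GRCm38.p6 (328 members matched by symbol, 6 by synonym, 3 unmatched). Upstream sequences were compared by edit distance with edlib 1.3.9.post1, and Python 3.11.15, pandas 2.3.3 and scipy 1.17.1 were used.

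Members, lists and rules were chosen with earlier results of these data known. Members named are up to 5 per mark and line with the largest ratio over input among marked genes with a mean scaled count of at least 10, the 4 per mark and direction with the largest ratio between the lines among those with at least 20 reads, the 3 with the most reads, pairs of identical length and counts, and up to 4 genes per list by absolute ratio, of which 1 is not reported here. Chosen after the values were seen were the 3 pairs of sequences shown, members named from counts of 6 or fewer, the limit of 15 edits (after trying limits from 0 to 60), the comparisons with ribosomal protein genes, Zfp genes, genes with at most 2 CpG and flanking genes, and the exclusion of copies, of chromosome 10, of Vmn2r121 with Vmn2r89 and of Cdh6. A planned comparison of proteins was replaced by that of upstream sequences.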

Additional observations from a re-analysis of the deposited data

Results flagged for a closer look

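Of 42 comparisons (21 clusters and both marks), 5 had ratios over input on opposite sides of 1 in mK3 and mK4 with an interval for the ratio of the ratios that excluded 1. The 2-gene cluster of chromosome 4, with no mK4 input read, gave no such ratio. The rule was set after the values were seen, it first also covered whole chromosomes, and with 1 library per group none of the differences was tested against replicates. For H3K4, the value in mK4 over mK3 was 0.508 [0.291, 0.887] at Vmn2r80 to Vmn2r83 and 0.244 [0.0829, 0.718] at Vmn2r84 to Vmn2r87 on chromosome 10, where the second cluster held 6 input reads in mK3. It was 2.37 [1.24, 4.53] at Vmn2r1 to Vmn2r7 on chromosome 3, where H3K4 was 0.509-fold [0.315, 0.823] input in mK3 and 1.21-fold [0.749, 2.00] in mK4. The reads of this cluster were 37 and 58 with H3K4 and 38 and 26 in the inputs, so the inputs moved against the mark, and the input share was 0.551-fold [0.321, 0.931] in mK4 over mK3, against 1.09-fold [0.948, 1.26] in its flanking genes. For H3K27, the value was 0.553 [0.329, 0.93] at Vmn2r19 to Vmn2r27 on chromosome 6. It was 0.398 [0.188, 0.844] at Vmn2r57 to Vmn2r63 on chromosome 7, where the input share was 2.04-fold [1.10, 3.99] in mK4 over mK3. The part of input sampling in these 5 values was not tested.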

How the results depend on the processing

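No paired analysis was possible because each group held 1 library. Of 152 values recomputed under alternatives, 109 stayed within their interval or within 1.5 times the count. With exon length as background, H3K27 reversed to 0.450 in mK3 and 0.381 in mK4, or 0.591 and 0.508 without near-identical copies, and H3K4 fell to 0.259 and 0.270, or 0.340 and 0.355. Without chromosome 7, the mK4 over mK3 shares were 0.951 for H3K4, 0.766 for H3K27 and 0.880 for input, and median centring gave 0.917 for H3K27. Numbers of called members depended on the pseudocount and threshold. With a pseudocount of 1, one of 10 and a 1.5-fold threshold in turn, H3K4 marked 50, 4 and 39 in mK3 and 48, 0 and 32 in mK4, and H3K27 marked 96, 10 and 90 and then 80, 7 and 64. Those higher in mK4 were 15, 0 and 12 for H3K4 and 16, 0 and 11 for H3K27, and those lower 12, 0 and 12, and 30, 0 and 33. Among members with a mean of at least 5 reads, H3K4 marked 2 in mK4, and 0 were higher in mK4 for H3K4 or for H3K27. With exon length as background, 0 members were marked by H3K4 in mK3, 0 in mK4, and 1 and 0 by H3K27. The protein comparison was not run, for want of protein sequences here. Depth limits single genes: a median of 2 input reads per member leaves most ratios unresolved.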
